A study of Mus musculus with 4 samples.

Results

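The genes of DNA replication and of mitosis that were examined are 34 in number, 21 of replication and 13 of mitosis, and were chosen as a fixed list of mouse symbols. A member was measured when a probe carried a RefSeq accession of its symbol. This found 39 probes for 30 genes (19 of replication and 11 of mitosis) among the 16358 symbols named on the arrays, and Gins1, Gins2, Cenpf and Mki67 had no probe matched in this way and are not analysed here. The samples are 4 single-colour arrays of RNA from testis of male mice at postnatal day 7, 2 of RNA recovered with the FLAG tag (FLAG IP) and 2 of the starting material (Input). All carry the transgene Tg-Nanos2 enhancer-3xFLAG-Nanos2-3'UTR, in which the Nanos2 enhancer drives Nanos2 carrying the FLAG tag and followed by a 3′ untranslated region, so the Input animals carry it too. The replicates are called biological by the series' design text. The labels name no animals and do not describe the immunoprecipitation, and a description field speaks of fetal gonads although the titles and the age given are those of day 7. A FLAG immunoprecipitate of untagged testis was not analysed here, so a change says how the FLAG IP differed from Input in a transcript's scaled signal and does not by itself show binding.

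Replication origins are marked by the origin recognition complex, onto which CDC6 and CDT1 load the MCM helicase during G1 phase. MCM10, CDC45 and the GINS complex then activate the helicase, PCNA clamps the polymerases to DNA, and ribonucleotide reductase supplies deoxynucleotides. In mitosis the checkpoint kinases BUB1 and BUBR1 watch over kinetochores, PLK1 and the Aurora kinases drive entry, spindle assembly and division, and CDC20 activates the ubiquitin ligase that starts anaphase. In the testis of the first postnatal week both spermatogonia and Sertoli cells divide. NANOS2 binds RNA in male germ cells and is known to recruit the CCR4-NOT deadenylase and to maintain spermatogonial stem cells.

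A level is the log2 signal of a probe minus the 75th percentile of its array, and a change is FLAG IP minus Input on that log2 scale, given with its limma standard error (SE, n = 2 arrays per group). Members counted as higher or lower were those with an adjusted p under 0.05 over all tested features in limma. Between 66.3% and 68.4% of probes were well above background on an array, all 4 arrays lay on 1 slide with 1 scan, and over 21589 features the FLAG IP pair correlated at 0.989 and the Input pair at 0.994 (Pearson's r), with 0.952 to 0.958 across groups. All 30 measured members were well above background on all 4 arrays. Nanos2 itself was at -1.94 and -2.44 in the FLAG IP arrays, against -3.87 and -3.66 in the Input arrays, a change of 1.58 ± 0.22 (adjusted p = 0.010).

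Both classes held transcripts that rose in the FLAG IP and transcripts that were not called. In limma 10 of the 30 measured members were called higher and 0 lower, and 1 member, Orc6, was lower at an unadjusted p under 0.05. The higher ones were 7 of 19 replication genes (Orc1, Orc3, Orc4, Orc5, Cdc6, Mcm10 and Rrm2) and 3 of 11 mitosis genes (Bub1, Bub1b and Plk1). When arrays were scaled to spike-in spots instead, the median of all features moved to -1.23 and none of the 10 was called higher. Orc3 (-0.40) and Bub1 (-0.16) then had negative changes. Of all tested features 373 were called higher and 12851 lower under that scaling. It shifts every change by the same amount, -1.08. The 10 therefore lay 0.83 to 1.85 above the median of all features by construction, as in the main processing. In the main processing 15.8% of all 21594 tested features were called higher and 21.3% lower (37.1% in either direction). Over the 13256 with a gene symbol these shares were 16.2% and 18.9% (35.2%). The median change was 0.05 over the replication genes and -0.04 over the mitosis genes, against -0.15 over all tested features. The sign of either median rested on single arrays: without FLAG IP replicate 1 they were 0.19 and 0.24, and without FLAG IP replicate 2 -0.09 and -0.20. Without Input replicate 1 they were 0.17 and 0.0027, without Input replicate 2 -0.025 and -0.055, and under quantile normalization 0.34 and 0.13. Each change sets RNA recovered with the tag against its starting material, and the cause of a higher or lower level was not tested.

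Most subunits of the origin recognition complex were higher in the FLAG IP. Of its 6 transcripts 4 were called, with a complex median of 1.02. Orc5, an ATP-binding subunit of the ring, was at 0.32 and 0.04 in the FLAG IP arrays, against -1.55 and -1.50 in the Input arrays. Orc4, another ATPase-fold subunit, was at 2.64 and 2.69 in the FLAG IP arrays, against 0.83 and 1.12 in the Input arrays. Both stood far apart between the groups, with changes of 1.70 ± 0.16 (adjusted p = 0.0055) for Orc5, 3.25-fold, and 1.69 ± 0.16 (adjusted p = 0.0056) for Orc4, 3.22-fold. Orc1, the ATPase that completes the ring when origins are licensed, was at 1.43 and 1.45 in the FLAG IP arrays, against 0.16 and 0.04 in the Input arrays. Its change was 1.35 ± 0.14 (adjusted p = 0.0063), 2.54-fold, and the arrays of each group lay close together.

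Orc3, a core subunit, showed a smaller rise, with levels of 1.49 and 1.43 in the FLAG IP arrays, against 0.69 and 0.86 in the Input arrays. The groups did not overlap and the change was 0.69 ± 0.14 (adjusted p = 0.024), 1.61-fold, a call that ended with the replicate number as a block (adjusted p = 0.084). Orc2, the partner of Orc3 in the core, was at 1.41 and 1.43 in the FLAG IP arrays, against 1.11 and 1.07 in the Input arrays, with a change of 0.33 ± 0.13 (adjusted p = 0.11) that was not called. Its 95% interval ran over -0.02 to 0.68. Orc6, the smallest subunit, ran the other way, at 2.54 and 2.98 in the FLAG IP arrays, against 3.49 and 3.38 in the Input arrays. The change was -0.67 ± 0.20 (adjusted p = 0.055). Orc6 was the one subunit with both FLAG IP arrays below both Input arrays, as 44.7% of all tested features were. The other 5, Orc2 included, had both FLAG IP arrays above both Input arrays, as 29.8% of all tested features did.

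Other probes of 2 of these genes differed from the brightest one. The brightest probe of Orc4 had the change above, and its other 2 probes had 0.59 (adjusted p = 0.10 among tested probes) and -0.16 (adjusted p = 0.39). For Orc3 a second probe of similar signal had 0.79 (adjusted p = 0.016 among tested probes), and a dim one, at -4.12 and -3.86 in the FLAG IP arrays, against -4.06 and -4.09 in the Input arrays, had 0.09. Averaged over probes, Orc4 changed by 0.70 (adjusted p = 0.028) and Orc3 by 0.52 (adjusted p = 0.042), both still called.

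**Figure D1:**
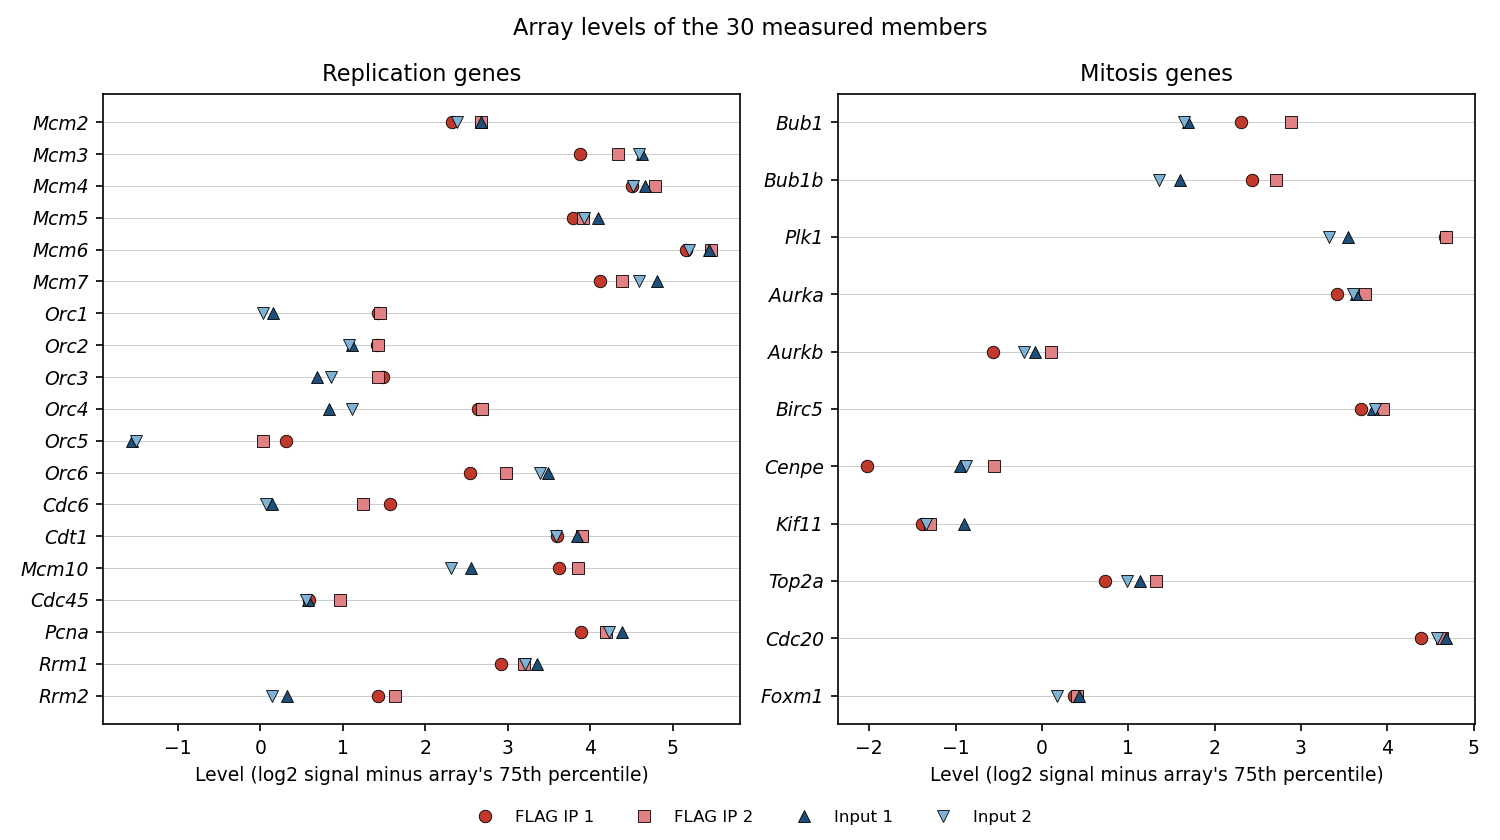
Levels of the 30 measured members on each array, as log2 signal minus the 75th percentile of the array, with replication genes on the left and mitosis genes on the right; each symbol is 1 array, red for FLAG IP and blue for Input. The red symbols lie clear to the right of the blue ones for the 10 genes called higher, and the 4 symbols mix for most mitosis genes.

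The subunits of the MCM helicase, which origin recognition proteins load, were not called in either direction. All 6 transcripts had changes between -0.50 and 0.05, with a median of -0.10. Mcm6 was at 5.16 and 5.46 in the FLAG IP arrays, against 5.44 and 5.20 in the Input arrays, and Mcm4 at 4.51 and 4.78 in the FLAG IP arrays, against 4.67 and 4.52 in the Input arrays. In both the groups overlapped, with changes of -0.01 ± 0.18 and 0.05 ± 0.17. Mcm2 was at 2.32 and 2.67 in the FLAG IP arrays, against 2.68 and 2.38 in the Input arrays, again with overlap and a change of -0.03 ± 0.20. The other 3 had both FLAG IP arrays below both Input arrays, as 44.7% of all tested features and 44.1% of those with a symbol did. Mcm3 was at 3.87 and 4.34 in the FLAG IP arrays, against 4.62 and 4.59 in the Input arrays, and its change was -0.50 ± 0.20 (adjusted p = 0.11). On a second, dimmer probe of Mcm3 the groups overlapped, with a change of -0.27 (adjusted p = 0.41 among tested probes). Mcm7 was at 4.12 and 4.39 in the FLAG IP arrays, against 4.81 and 4.58 in the Input arrays, and its change was -0.44 ± 0.17 (adjusted p = 0.11). Mcm5 had the narrowest gap, at 3.78 and 3.91 in the FLAG IP arrays, against 4.09 and 3.92 in the Input arrays, and a change of -0.16 ± 0.15 (adjusted p = 0.43). The 95% intervals reached at most 0.49 on the upper side over Mcm2 to Mcm7, below the smallest called change, 0.69 for Orc3. The interval of Orc3 itself ran from 0.31 to 1.06, and differences between genes were not tested.

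Of the helicase loaders Cdc6 was higher and Cdt1 was not called. Cdc6, an ATPase, was at 1.58 and 1.24 in the FLAG IP arrays, against 0.15 and 0.07 in the Input arrays, with a change of 1.30 ± 0.17 (adjusted p = 0.0096), 2.46-fold. Its second probe, dimmer at -3.43 and -2.94 in the FLAG IP arrays, against -2.87 and -3.54 in the Input arrays, had a change of 0.02 (adjusted p = 0.97 among tested probes), and the mean of both probes had 0.66 (adjusted p = 0.049). Cdt1, which brings the helicase to the origin, was at 3.59 and 3.90 in the FLAG IP arrays, against 3.84 and 3.58 in the Input arrays. There the groups overlapped and the change was 0.04 ± 0.19 (adjusted p = 0.88), with a 95% interval of -0.45 to 0.52. Whether Cdc6 and Cdt1 differ in their change was not tested.

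Of the factors that activate the helicase, Mcm10 was higher and Cdc45 was not called. Mcm10, a scaffold that recruits polymerase alpha, was at 3.63 and 3.85 in the FLAG IP arrays, against 2.55 and 2.32 in the Input arrays. Both FLAG IP arrays lay well above both Input arrays, for a change of 1.31 ± 0.17 (adjusted p = 0.0091), 2.47-fold. Cdc45, a part of the active helicase, was at 0.59 and 0.97 in the FLAG IP arrays, against 0.58 and 0.55 in the Input arrays, and its change was 0.21 ± 0.18 (adjusted p = 0.39). Pcna, the sliding clamp, was at 3.89 and 4.19 in the FLAG IP arrays, against 4.39 and 4.23 in the Input arrays, with a change of -0.27 ± 0.17 (adjusted p = 0.27).

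The subunits of ribonucleotide reductase also parted. Rrm2, the small subunit whose level limits the enzyme in S phase, was at 1.42 and 1.63 in the FLAG IP arrays, against 0.33 and 0.15 in the Input arrays. Its change was 1.29 ± 0.16 (adjusted p = 0.0083), 2.45-fold, and the groups lay far apart. Rrm1, the large subunit, was at 2.92 and 3.20 in the FLAG IP arrays, against 3.35 and 3.21 in the Input arrays. Its change was -0.22 ± 0.17 (adjusted p = 0.33), with a 95% interval of -0.66 to 0.21, and FLAG IP lay slightly below Input on all arrays.

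**Figure D2:**
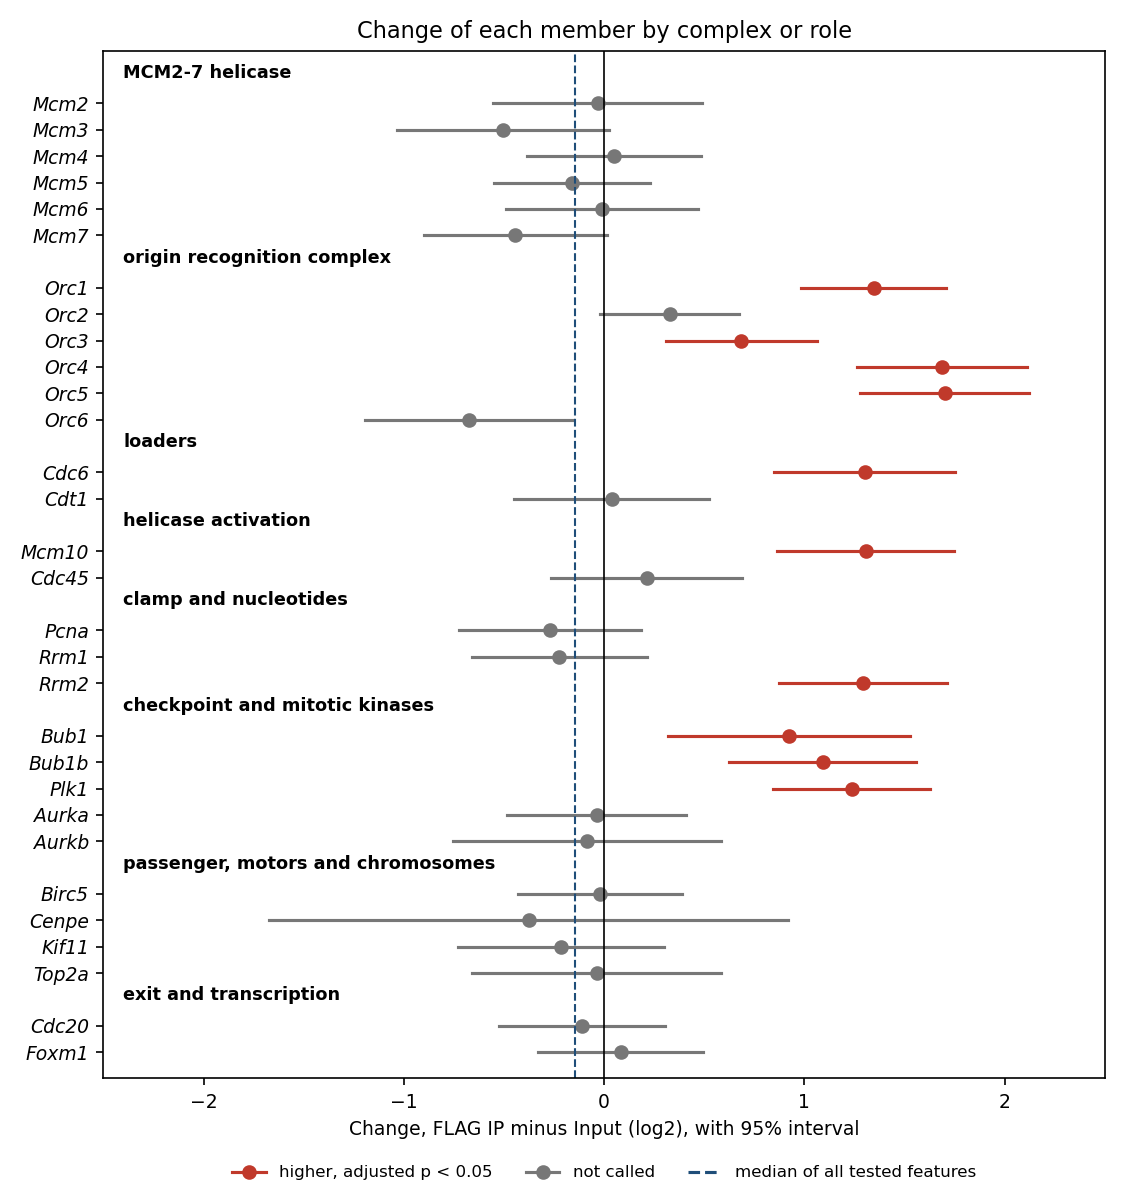
Change of each measured member, FLAG IP minus Input on the log2 scale, as a point with its 95% interval from limma (n = 2 arrays per group), grouped by complex or role; red marks an adjusted p under 0.05 and the dashed line is the median of all tested features, -0.15. The 10 red points lie between 0.69 and 1.70, and the helicase subunits lie at or below 0.05.

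Among mitosis genes, the spindle checkpoint kinases and Plk1 were higher, and the Aurora kinases were not called. Plk1, the polo-like kinase of mitotic entry and spindle assembly, was at 4.67 and 4.68 in the FLAG IP arrays, against 3.55 and 3.33 in the Input arrays. The FLAG IP arrays almost coincided, and the change was 1.24 ± 0.15 (adjusted p = 0.0079), 2.36-fold. Bub1b, which encodes BUBR1 of the mitotic checkpoint complex, was at 2.43 and 2.71 in the FLAG IP arrays, against 1.60 and 1.36 in the Input arrays. The change was 1.09 ± 0.18 (adjusted p = 0.014), 2.13-fold. Bub1, the kinase that brings checkpoint proteins to kinetochores, was at 2.30 and 2.89 in the FLAG IP arrays, against 1.69 and 1.65 in the Input arrays. The groups did not overlap, but the FLAG IP arrays differed by 0.58 from each other, and the change was 0.92 ± 0.23 (adjusted p = 0.037), 1.90-fold. The call of Bub1 ended with the replicate number as a block (adjusted p = 0.058) and without the filter on dim probes (adjusted p = 0.086). Both FLAG IP arrays were above both Input arrays in 29.8% of all tested features and 31.0% of those with a symbol, and these 3 were the only mitosis members to do so.

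The remaining 8 mitosis genes had overlapping groups and changes between -0.38 and 0.08. Aurka, the Aurora kinase of centrosomes and spindle poles, was at 3.41 and 3.74 in the FLAG IP arrays, against 3.63 and 3.60 in the Input arrays, a change of -0.04 ± 0.17. Aurkb, the kinase of the chromosomal passenger complex, was at -0.56 and 0.10 in the FLAG IP arrays, against -0.08 and -0.21 in the Input arrays, a change of -0.09 ± 0.26. Birc5, which encodes survivin of the same complex, was at 3.70 and 3.95 in the FLAG IP arrays, against 3.83 and 3.86 in the Input arrays, a change of -0.02 ± 0.16. In these genes FLAG IP 1 was the lowest array and FLAG IP 2 the highest. Top2a, the topoisomerase that untangles sister chromatids, followed the same order, at 0.73 and 1.32 in the FLAG IP arrays, against 1.14 and 0.99 in the Input arrays, a change of -0.04 ± 0.24. Kif11, the motor that separates spindle poles, was at -1.39 and -1.29 in the FLAG IP arrays, against -0.91 and -1.34 in the Input arrays, a change of -0.22 ± 0.20. Input 1 stood above the other 3 arrays in Kif11.

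Cenpe, a kinetochore motor, was the least precise member, at -2.02 and -0.56 in the FLAG IP arrays, against -0.95 and -0.88 in the Input arrays. Its change was -0.38 ± 0.50, with a 95% interval of -1.67 to 0.92, and its second, dimmer probe had -1.12 (adjusted p = 0.077 among tested probes). Cdc20, the activator of the anaphase-promoting complex, was at 4.39 and 4.64 in the FLAG IP arrays, against 4.68 and 4.57 in the Input arrays, a change of -0.11 ± 0.16. Foxm1, a transcription factor that drives late cell cycle genes, was at 0.37 and 0.40 in the FLAG IP arrays, against 0.43 and 0.18 in the Input arrays, a change of 0.08 ± 0.16. The smallest adjusted p among these 8 genes was 0.42.

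The classes were also set side by side by promoter sequence, which the gene list did not use. Replication genes are known as targets of E2F factors and mitosis genes as targets of the MuvB complex, which binds the CHR element. Windows of 300 bases, from 250 bases before the gene start, were taken from RefSeq (GRCm38.p6) for 18 of the 21 replication genes and 11 of the 13 mitosis genes. Promoter windows of Mcm4, Gins1, Gins2, Aurkb and Foxm1 were not analysed here. The motifs searched on both strands were TTTCCCGC, TTTCGCGC and TTTGGCGC for E2F, TTTGAA and TTCGAA for CHR, and CCAAT for the NF-Y box. TTTCGCGC can share bases with its own reverse complement, and TTCGAA is its own reverse complement. The sequences below show the match in capitals, read on the strand of the gene, where a match on the opposite strand appears as its reverse complement. Of these genes Orc1, Cdc6, Plk1 and Bub1b were higher in the FLAG IP, and Mcm6 and Cdc20 were not called.
Orc1, chr4:108579417-108579444, + strand: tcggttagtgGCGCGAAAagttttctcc
Cdc6, chr11:98908003-98908030, + strand: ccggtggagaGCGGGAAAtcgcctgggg
Mcm6, chr1:128359735-128359762, - strand: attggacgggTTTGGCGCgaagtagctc
Plk1, chr7:122159455-122159480, + strand: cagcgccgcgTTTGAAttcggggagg
Bub1b, chr2:118598241-118598260, + strand: agacgttaaaTTTGAAactt
Cdc20, chr4:118437346-118437371, - strand: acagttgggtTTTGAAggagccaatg

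A gene was counted once if any of its windows matched, and Mcm7 and Orc2 had 2 windows and Orc4 had 3. An E2F match was found in 8 of 18 replication genes (44.4%) and 0 of 11 mitosis genes, against 2.12% of 27025 genes and 3.68% of the 10590 tested genes. A CHR match was found in 9 of 11 mitosis genes (81.8%) and 3 of 18 replication genes (16.7%), against 21.7% of all genes and 16.9% of tested genes. The NF-Y box was in 14 of 18 replication and 10 of 11 mitosis genes, against 41.1% of all genes and 42.9% of tested genes. Among measured replication genes, 3 of 8 with an E2F match were higher in the FLAG IP, with changes between -0.50 and 1.35, and 4 of 10 without one were, with changes between -0.67 and 1.70. Of the 7 measured mitosis genes with a CHR match 3 were higher, and neither of the other 2 was (Birc5 and Cenpe). Of all tested features 15.8% were called higher. With so few genes these counts cannot set genes with and without a match apart, and a link of motif and change was not tested. Higher transcripts were found with and without an E2F match.

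**Figure D3:**
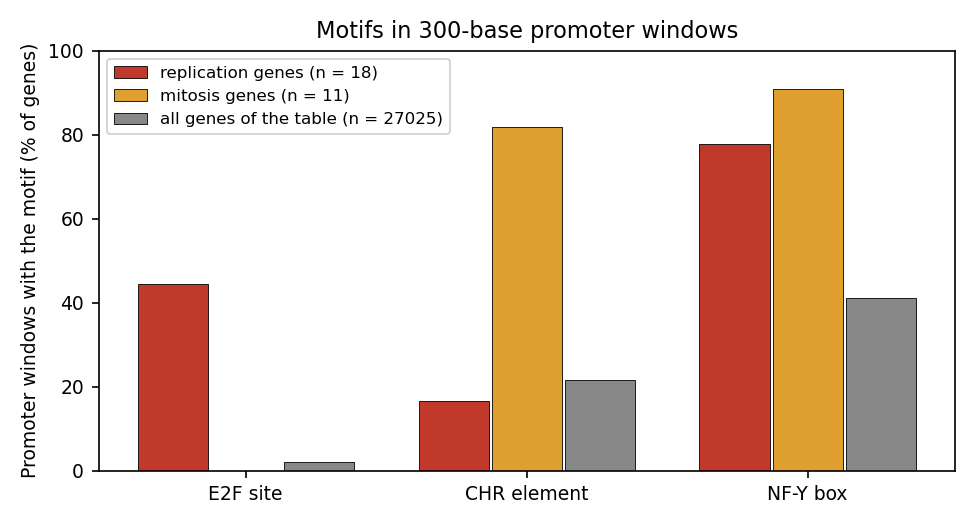
Share of genes with each motif on either strand in any of their 300-base promoter windows, for 18 replication genes, 11 mitosis genes and all 27025 genes of the promoter table. The E2F bar is at 44.4% for replication genes and 0 for mitosis genes, and the CHR bar is at 81.8% for mitosis genes.

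In the main processing the wider replication machinery had calls in both directions. Of 44 further replication genes listed, 41 were tested. Of these, 11 were higher (26.8%, against 15.8% of all tested features) and 7 lower (17.1%, against 21.3%), with a median change of -0.06. Spike-in scaling gave 0 higher and 21 lower, the replicate block 6 and 2, and leaving out Input replicate 1 or 2 gave 3 or 2 higher and 0 lower. Over all 21594 tested features spike-in scaling gave 373 higher and 12851 lower, and the replicate block 2269 and 2290. Leaving out either Input array also gave fewer calls over all tested features than the main processing. Dbf4, the regulatory subunit of the kinase that fires origins, rose by 1.93 ± 0.21 (adjusted p = 0.0070), 3.81-fold, at 2.72 and 3.11 in the FLAG IP arrays, against 1.15 and 0.82 in the Input arrays. Pole2, an accessory subunit of polymerase epsilon, rose by 1.73 ± 0.17 (adjusted p = 0.0060), whereas the catalytic subunit Pole was at -0.89 ± 0.15 (adjusted p = 0.015) and Pole3, a histone-fold subunit, at -1.21 ± 0.13 (adjusted p = 0.0070). Chaf1a, the large subunit of chromatin assembly factor 1, rose by 1.48 ± 0.18 (adjusted p = 0.0080) and Gins3 by 1.21 ± 0.21 (adjusted p = 0.017). Lower transcripts also included Pold4, a small subunit of polymerase delta, at -0.83 ± 0.22 (adjusted p = 0.040), and Rnaseh2a, a catalytic subunit of ribonuclease H2, at -0.67 ± 0.16 (adjusted p = 0.035). Chosen after their values were seen, Cdc7, the catalytic partner of Dbf4, changed by 0.79 ± 0.18 (adjusted p = 0.031), Gmnn, the inhibitor of Cdt1, by 0.73 ± 0.15 (adjusted p = 0.024), and Gins4 by -0.59 ± 0.14 (adjusted p = 0.031), so Gins3 and Gins4 of the same complex were called in opposite directions. Under spike-in scaling the changes of Cdc7 and Gmnn turned negative (-0.29 and -0.35), as did that of Rrm2b described next (-0.38).

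Of 16 genes of nucleotide supply 2 were higher and 2 lower, with a median of -0.24, neither share being above the 15.8% and 21.3% of all tested features. Spike-in scaling gave 0 higher and 10 lower, and without either Input array 0 were called in each direction. The calls over all tested features moved in the same directions under these settings, as given above. Dck, which salvages deoxynucleosides, rose by 1.45 ± 0.22 (adjusted p = 0.012), and its call ended when its probes were averaged (adjusted p = 0.056). Rrm2b, the p53-induced small subunit of ribonucleotide reductase, rose by 0.70 ± 0.18 (adjusted p = 0.037). Cad, the first enzyme of pyrimidine synthesis, was at -1.28 ± 0.14 (adjusted p = 0.0071), and Nme2, a nucleoside diphosphate kinase, at -1.01 ± 0.18 (adjusted p = 0.017). Of 72 further mitosis genes 66 were tested, of which 21 were higher (31.8%) and 2 lower (3.03%), with a median of 0.28. Spike-in scaling gave 0 higher and 23 lower, the replicate block 16 and 0, and leaving out Input replicate 1 or 2 gave 9 or 6 higher and 0 lower. Over all 21594 tested features spike-in scaling gave 373 higher and 12851 lower, and the replicate block 2269 and 2290. Ect2, an exchange factor needed for cytokinesis, rose by 2.07 ± 0.16 (adjusted p = 0.0045), 4.21-fold, at 3.68 and 3.92 in the FLAG IP arrays, against 1.81 and 1.63 in the Input arrays. Sgo1, which protects centromeric cohesion, rose by 1.95 ± 0.14 (adjusted p = 0.0040), Haspin, a histone H3 kinase of centromeres, by 1.94 ± 0.14 (adjusted p = 0.0041), and Ska1, of a complex that couples kinetochores to microtubules, by 1.83 ± 0.14 (adjusted p = 0.0042). Chosen after their values were seen, the kinetochore proteins Spc25 and Spc24, partners in the NDC80 complex, rose by 1.58 ± 0.18 (adjusted p = 0.0073) and 1.05 ± 0.18 (adjusted p = 0.016), and Cdk1, the main mitotic kinase, by 1.16 ± 0.20 (adjusted p = 0.015). Spc24 was at -0.033 under spike-in scaling. The call of Cdk1 ended when its probes were averaged, with a change of 0.72 (adjusted p = 0.17).

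The 2 lower transcripts of that list were Bub3, the partner of Bub1 and BUBR1 at kinetochores, at -0.72 ± 0.15 (adjusted p = 0.023), and Pkmyt1, an inhibitory kinase of CDK1, at -0.54 ± 0.14 (adjusted p = 0.040). Bub3 lost its call when its probes were averaged (adjusted p = 0.11). Of 20 E2F, RB and MuvB regulators 18 were tested. Of these, 6 were higher (33.3%, against 15.8% of all tested features) and 3 lower (16.7%, against 21.3%), with a median of 0.42. Spike-in scaling gave 1 higher and 4 lower, the replicate block 4 and 2, and leaving out Input replicate 1 or 2 gave 4 or 3 higher and 0 lower. Over all 21594 tested features spike-in scaling gave 373 higher and 12851 lower, and the replicate block 2269 and 2290. E2f8, a repressor E2F, was at 0.21 and -0.07 in the FLAG IP arrays, against -2.11 and -2.30 in the Input arrays, a change of 2.27 ± 0.17 (adjusted p = 0.0042), 4.84-fold. Lin54, the MuvB subunit that binds the CHR element, rose by 2.09 ± 0.14 (adjusted p = 0.0040), Rb1, the retinoblastoma protein, by 1.98 ± 0.13 (adjusted p = 0.0040), and Rbbp4, a histone-binding subunit of MuvB, by 1.57 ± 0.32 (adjusted p = 0.022). The Rb1 relative Rbl2 was at -1.11 ± 0.14 (adjusted p = 0.0082), Lin37 of MuvB at -0.93 ± 0.13 (adjusted p = 0.011), and the E2F partner Tfdp2 at -0.62 ± 0.17 (adjusted p = 0.049). Other probes of Rbbp4 had 1.81 and -0.41, which differ in sign. A second, dimmer probe of Rb1 had 0.67 (adjusted p = 0.095 among tested probes) and was not called. The call of Tfdp2 ended when probes were averaged (adjusted p = 0.068).

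**Figure D4:**
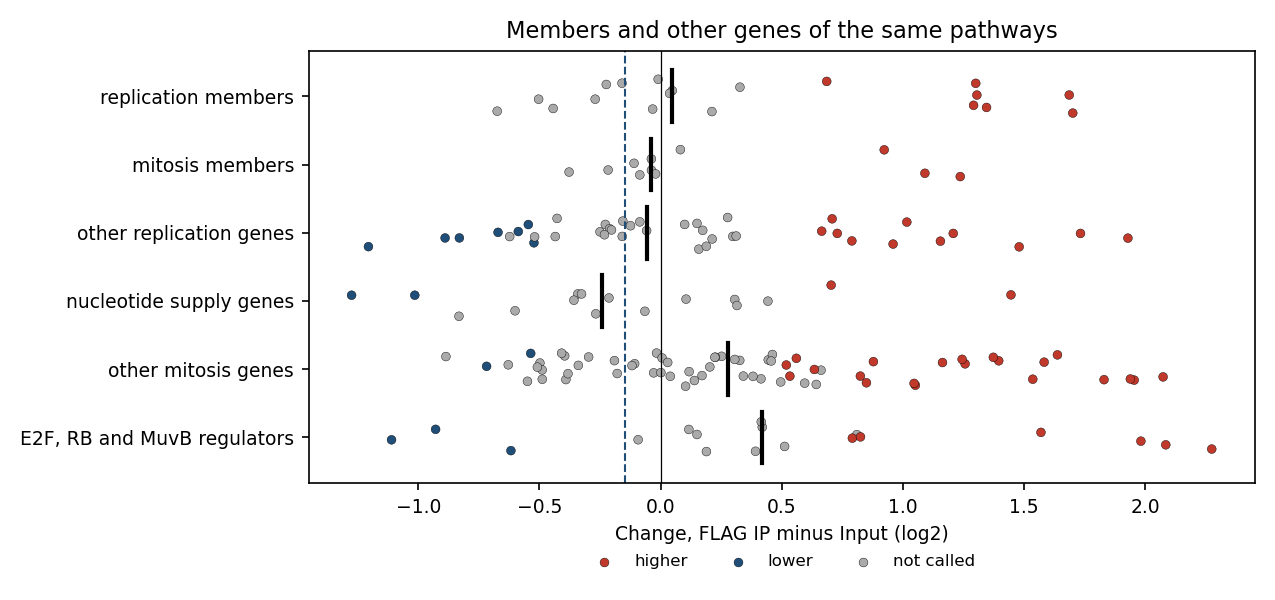
Change of each tested gene, FLAG IP minus Input on the log2 scale, in the member classes and in 4 lists of related genes; red marks genes called higher, blue genes called lower and grey genes not called, the black bar is the median of the list and the dashed line that of all tested features. Calls in both directions appear in all 4 related lists, and the members have calls above 0 only.

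Marker lists of cell types in the testis differed in the direction of their changes. Over all tested features 15.8% were called higher and 21.3% lower. Of 18 tested markers of undifferentiated spermatogonia 14 were higher and 1 lower, with a median change of 1.60, and their summed signal, each relative to the array's 75th percentile, was 62.7 and 50.4 in the FLAG IP arrays, against 16.4 and 17.3 in the Input arrays. Of 15 general germ cell markers, which share Nanos2 and Nanos3 with that list, 4 were higher (26.7%), with a median of 0.16. Their summed signal was 110 and 138 in the FLAG IP arrays, against 84.2 and 85 in the Input arrays. Ddx4 and Dazl, the defining ones, had changes of 0.16 ± 0.25 (adjusted p = 0.64) and 0.66 ± 0.23 (adjusted p = 0.077). A second probe of Dazl had 0.05 (adjusted p = 0.83 among tested probes). Of 19 Sertoli markers 10 were lower, with a median of -0.72 and a summed signal of 283 and 291 in the FLAG IP arrays, against 448 and 400 in the Input arrays. Sox9 was at -0.88 ± 0.17 (adjusted p = 0.020), with -0.23 and -0.74 on its other probes, and Amh at -0.87 ± 0.20 (adjusted p = 0.029). Leydig, peritubular myoid, macrophage and endothelial lists had 6 of 12, 6 of 11, 6 of 10 and 2 of 12 lower, with 1 endothelial gene higher and medians between -0.82 and -0.59. The Leydig marker Star was not called, at -0.22 ± 0.46 (adjusted p = 0.73) with overlapping groups. The myoid marker Acta2, at -0.49 ± 0.14 (adjusted p = 0.051), was not called either, with -0.85 and -1.05 on its other probes. The summed signal of Leydig markers was 18.1 and 21.9 in the FLAG IP arrays, against 46.6 and 36.1 in the Input arrays, and that of myoid markers 83.5 and 86.9 in the FLAG IP arrays, against 142 and 128 in the Input arrays. That of macrophage markers was 10.2 and 10.2 in the FLAG IP arrays, against 15.6 and 16.3 in the Input arrays, and that of endothelial markers 7.0 and 5.18 in the FLAG IP arrays, against 6.91 and 8.93 in the Input arrays. The part of these cell types in the members' changes was not tested.

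The members also differed between arrays of the same group. FLAG IP 2 was above FLAG IP 1 for 27 of the 30 members (90.0%) with a median difference of 0.27, against 45.0% and -0.04 over all tested features. Input 1 was above Input 2 for 25 of the 30, with a median Input 2 minus Input 1 of -0.13, against 0.01 over all tested features. The 3 members with FLAG IP 1 above FLAG IP 2 were Orc3, Orc5 and Cdc6, all called higher. The 10 called members kept a positive change with any 1 array left out, from 0.60 (Orc3) to 1.84 (Orc5). Leaving out either Input array lowered the number of calls over all tested features in both directions, so a lost call is not particular to the members. Without Input replicate 2, 2 of the 10 stayed called (Orc4 and Orc5), and without Input replicate 1, 5 did (Mcm10, Orc1, Orc4, Orc5 and Plk1). Without either FLAG IP array all 10 stayed called, and without FLAG IP replicate 2 Mcm3, Orc6 and Cenpe were called lower as well.

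**Figure D5:**
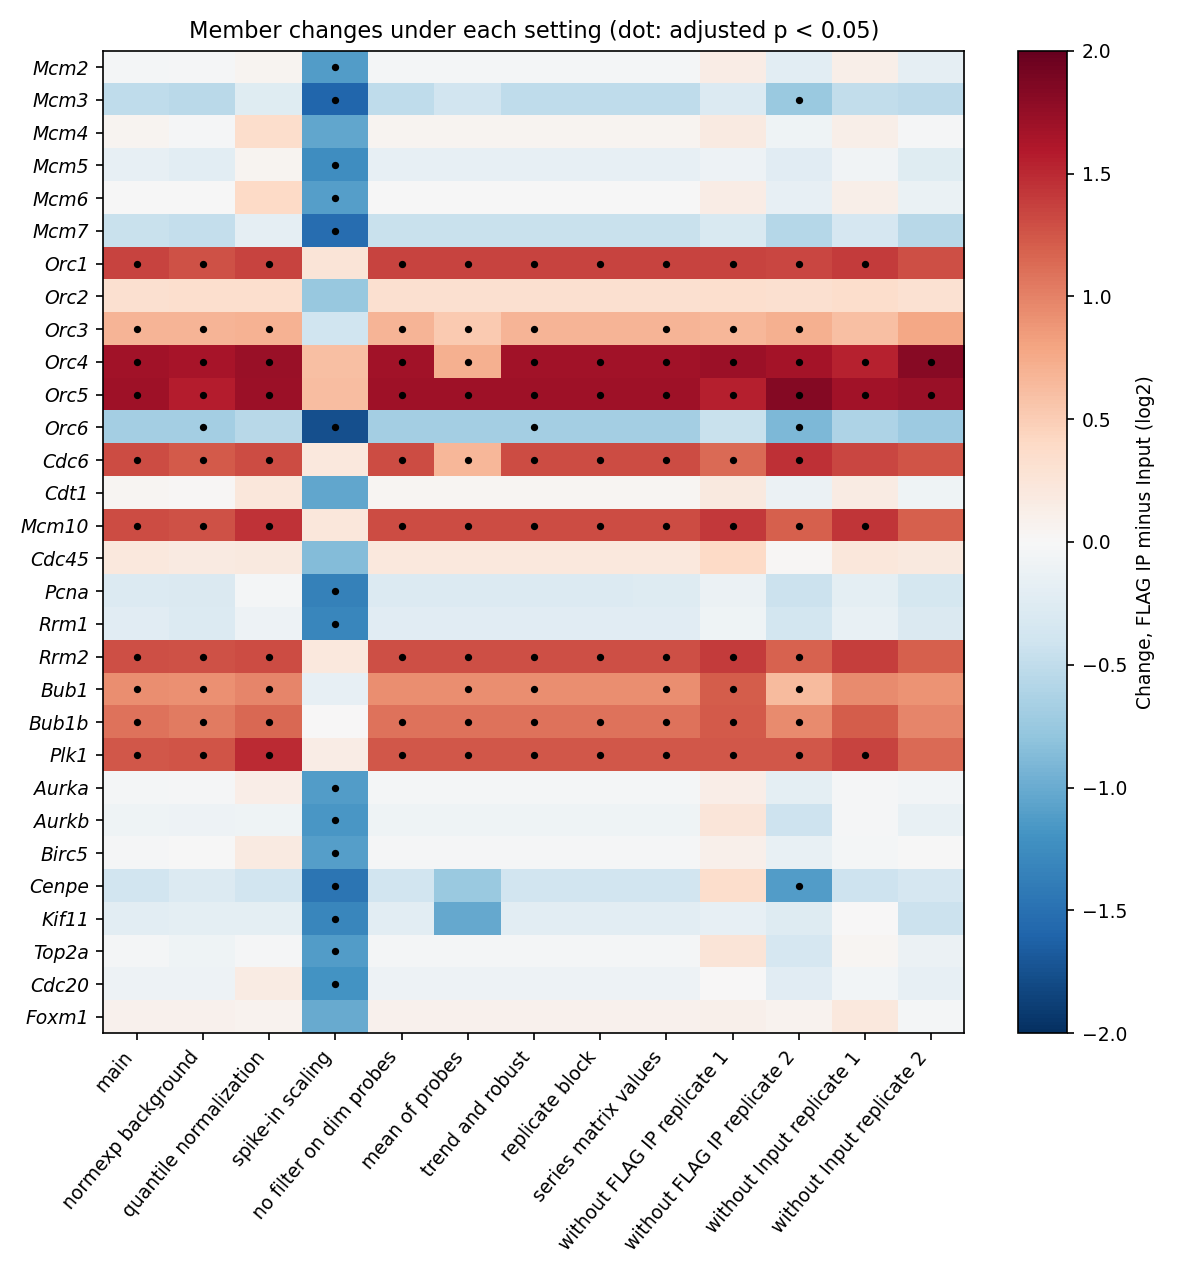
Change of each measured member (rows), FLAG IP minus Input on the log2 scale, under the main processing and each alternative planned (columns), with a dot where the adjusted p was under 0.05. Calls over all tested features also fell when either Input array was left out. The 10 genes called higher keep their dots in most columns, lose them under spike-in scaling, which moved the median of all features to -1.23, and lose 5 and 8 of them without Input replicate 1 and Input replicate 2.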

How the data were processed

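Agilent Feature Extraction (version 9.5, per the submitters' processing notes) produced the spot values. The deposited processed signal is a background-subtracted intensity, per the file headers. In a second deposited table the authors' log2 values matched that signal up to 1 constant per array (within 0.01 for 99.6% of probes), with column medians of 6.25 and 6.15 for FLAG IP and 6.18 and 6.25 for Input. The tool that scaled them is not stated in the labels. Outlier spots (62 to 90 of 43379 per array) were left out, 0 were saturated, and spots were averaged per probe. A probe was named through its accession in RefSeq of GRCm38.p6 (22951 of 41174 probes), the brightest probe stood for its gene, and features well above background on both arrays of a group (21594 of 33390) were tested with limma 3.58.1 in R 4.3.3, two-sided, with Benjamini-Hochberg adjustment at 0.05. Adjusted p-values all come from that fit or a named alternative. For single probes the same limma model was run over all tested probes. The fit was also run on simulated data with known changes and the same noise for every feature, unlike the arrays, whose noise differs between features.

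Members, lists and tests were chosen with earlier results of these data known. Text beyond the members names up to 4 higher and 4 lower genes per further list by size of change, unless marked as chosen after their values were seen. Normexp used the median spot signal, as the files used here hold no mean signal. Since same-numbered arrays deviated oppositely (correlation -0.38 over features), the replicate number is no shown pairing.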

Additional observations from a re-analysis of the deposited data

How the results depend on the processing

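The 10 calls among the members were all kept under normexp background, quantile normalization, averaged probes, trend and robust moderation and the authors' values. The last of these is no separate check, as the authors' values differ from the main signal by a constant per array and were rescaled alike. Averaging changed the levels of only Orc3, Orc4 and Cdc6 among the 10, the others having 1 probe. With the replicate block 6 replication and 2 mitosis genes were called higher (Orc3, adjusted p = 0.084, and Bub1, adjusted p = 0.058, were not). That block called 2269 features higher and 2290 lower, against 3410 and 4600. Normexp and the unfiltered fit moved the median of all features to -0.00021 and 0.042, against -0.15. Without a filter on dim probes Bub1 was not called (adjusted p = 0.086). Replication genes called lower were 1 (Orc6) under normexp and under trend and robust moderation. In crossed pairing of the replicate block, added after seeing the data, 7 replication and 3 mitosis genes were higher and 2 replication genes lower. Scaling to spike-in spots moved the median of all features to -1.23, with 0 replication and 0 mitosis genes higher, 8 and 7 lower, and medians of -1.04 and -1.12. Over all 21594 tested features that scaling called 373 higher and 12851 lower. Reversed there were Orc3 (-0.40), Bub1 (-0.16), Rrm2b (-0.38), Cdc7 (-0.29), Gmnn (-0.35) and Spc24 (-0.033). Of all calls 2.82% were higher there, against 42.6% in the main processing, 58.0% without Input replicate 1 and 64.7% without Input replicate 2. The 10 called members lay 0.83 to 1.85 above the median of all features under spike-in scaling. The same distances hold in the main processing, because this scaling shifts every change by the same amount. Leaving out 1 array in turn gave 2 to 7 replication genes higher and 0 to 2 lower, 0 to 3 mitosis genes higher and 0 to 1 lower. The replication minus mitosis median, 0.09, was 0.21 under quantile normalization and between -0.054 and 0.16 without 1 array, so its sign is not settled. Without 1 array, higher calls numbered 6 to 24 among other mitosis genes, 2 to 12 among other replication genes, 0 to 2 in nucleotide supply and 3 to 6 among the regulators, and lower calls 0 to 6, 0 to 6, 0 to 4 and 0 to 3 in the same lists. With the replicate block 9 of the 31 genes named from these lists were no longer called (Bub3, Cdc7, Gins4, Gmnn, Pkmyt1, Pold4, Rnaseh2a, Rrm2b and Tfdp2). The slide and scan block was not run, since the arrays share both. The causes of these shifts were not tested. With 2 arrays per group, precision is limited by their number.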
